A study of Mus musculus with 16 samples.

Results

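The rodent Sfmbt2 cluster is a long run of microRNA (miRNA) genes inside the Polycomb gene Sfmbt2, and the mature miRNAs of its families miR-297, miR-466, miR-467 and miR-669, whether from the run itself or from related genes elsewhere, were examined in the prefrontal cortex of PS19 tauopathy mice. Every row of the table whose name gave a mature miRNA of these 4 families was taken, which made 40 rows of the 1254 mature miRNA rows and of the 18488 non-coding RNA features measured. The families held 2 rows (miR-297), 15 rows (miR-466), 7 rows (miR-467) and 16 rows (miR-669). The rule used names only and no measured value, though it was set with earlier results of these data known. Because some rows held the same value in every library, the 40 rows came to 33 distinct ones.

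Small RNA libraries from 16 mice, 8 PS19 and 8 wild-type (WT) littermates at 9.6 months of age, were compared. PS19 mice were heterozygous for a transgene of human tau with the P301S mutation under the prion protein promoter, on a mixed C57BL/6 and C3H background, and the WT littermates lacked it. The promoter drives mutant tau from outside its own locus, so the line is a model of tau overexpression, and the table did not measure the transgene. Both sexes were used in equal number in each genotype, but the labels do not give the sex of a library. All animals were perfused, and RNA came from a small piece of cortex, so that fewer cells of a type and less RNA per cell cannot be told apart. Libraries held 13.2 M to 23.1 M reads recovered from the table (M, reads in units of 1e6), 16.9 ± 2.72 M in PS19 and 18.3 ± 3.39 M in WT (SD, n = 8 each). The code of each library began with G for 8 PS19 and 2 WT libraries, with F for 4 WT and with A for 2 WT, and the meaning of the letter was not stated.

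A miRNA is cut from a hairpin precursor and guides Argonaute proteins to messenger RNAs that pair with its seed, the bases from the second to the eighth. The 5p and 3p products come from the opposite arms of the hairpin. The Sfmbt2 cluster lies in an intron of the gene, is found in mouse and rat but not in most other mammals, and grew by repeated duplication, which left many near-identical copies rich in alternating U and G on one arm and A and C on the other. Sfmbt2 is imprinted and expressed from the paternal copy in early embryos and in the placenta, where the cluster is known for its role in trophoblast growth. In adult brain the families are not among the well-known neuronal miRNAs.

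The GENCODE M21 annotation of GRCm38 listed 81 hairpin genes of the 4 families, and 71 of them lay inside Sfmbt2 (chr2:10370510-10595253, plus strand). These 71 formed a run of 51.6 kb, from position 10466663 to position 10518279, all on the strand of the gene. None of them overlapped an exon (0 of 71), and 0 exons fell between the first and the last, so the whole run sat in 1 intron. The run held 5 Mir297, 23 Mir466, 14 Mir467 and 29 Mir669 genes. The remaining 10 genes (1, 5, 3 and 1 of the families in that order) were spread over 7 other chromosomes. Mir669c lay at chr2:10509296-10509404 and Mir669h at chr2:10518155-10518279, each a single gene, whereas Mir467a was annotated at 10 places in the run. A read of miR-467a therefore has no single origin, and how reads that align to several places were counted is not given in the sources used here.

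To show what these small RNAs look like, the mature sequences held for the families in RefSeq (GRCm38.p6) are given for 4 of them, with the seed in capitals. The first has a row in the table, matching 1 of the 40 rows, and the other 3 have none and carry no value here. All 4 come from genes outside the Sfmbt2 run.
mmu-miR-669n (chr3:115979905-115979924, plus strand): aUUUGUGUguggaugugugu
mmu-miR-466k (chr3:85467396-85467418, plus strand): uGUGUGUGuacauguacauguga
mmu-miR-467h (chr9:115381898-115381919, plus strand): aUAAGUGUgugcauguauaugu
mmu-miR-467f (chr11:69635419-69635439, minus strand): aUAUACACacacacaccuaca
The first 3 show the U and G repeats of one arm and the last shows the A and C repeats of the other, and the 4 seeds all differ. The letters UGUGUG, searched on the RNA strand only, occurred in 4 of the 8 RefSeq sequences of these families and in 12 of the 1071 mature rows with a sequence (1.12%). ACACAC occurred in 4 of the 8 and in 5 of the 1071 (0.467%). None of the other mature rows with a sequence shared the seed of miR-669n (0 rows). The row of miR-669n itself held 1 read in PS19 replicate 5 and 1 read in WT replicate 3, and its values were the same in all 16 libraries as those of miR-466b-5p and miR-466o-5p.

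The first question was which of these miRNAs the adult cortex contained. One miRNA, miR-669c-5p, made up nearly all of the signal of the cluster families, and most of the others were close to the limit of detection. In normalized read counts (reads divided by a size factor for each library) the mean of miR-669c-5p over all libraries was 912.1, which ranked 132 among the 1254 mature miRNA rows. The next was miR-467a-5p with a mean of 39.5 and rank 335. Then came miR-669a-5p with 12.7, identical in every library to miR-669p-5p, miR-669h-5p with 10.9 and miR-467b-5p with 9.77. These 6 rows, 5 of them distinct, were the members with a mean of at least 5, the filter for testing, and they were also the 6 rows with a read in all 16 libraries. The other 34 rows fell under the filter, beginning with miR-669o-5p at a mean of 4.90 just below it. A mean under 1 was found for 18 rows, and 6 rows had a read in only 1 library.

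Summed with identical rows counted once, the miR-669 family gave 93.4% of the signal of all members, miR-467 gave 5.66%, miR-466 gave 0.906% and miR-297 gave 0.0397%. The miR-466 family had 15 rows but 12 distinct ones, whose means ran from 0.0535 to 1.83, so that none of them was tested. The 2 miR-297 rows together held 6 reads in all libraries. The arms were also uneven. The 5p rows carried 99.1% of the signal and the 3p rows 0.870%, although 13 of the 40 rows were 3p products, 25 were 5p and 2 named no arm. By family the 5p arm led in miR-669 (15753 reads against 34) and in miR-467 (950 against 24), while in miR-466 the 3p arm had more reads (104 against 47, and 48 against 37 without WT replicate 3). Of these 5p reads, miR-669c-5p alone held 15109 and miR-467a-5p held 664, and no row named the 3p arm of miR-669c. In miR-467 only miR-467a and miR-467d had a 3p row. Together the members took up 0.00600% to 0.0906% of all mature miRNA signal of a library.

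**Figure D1:**
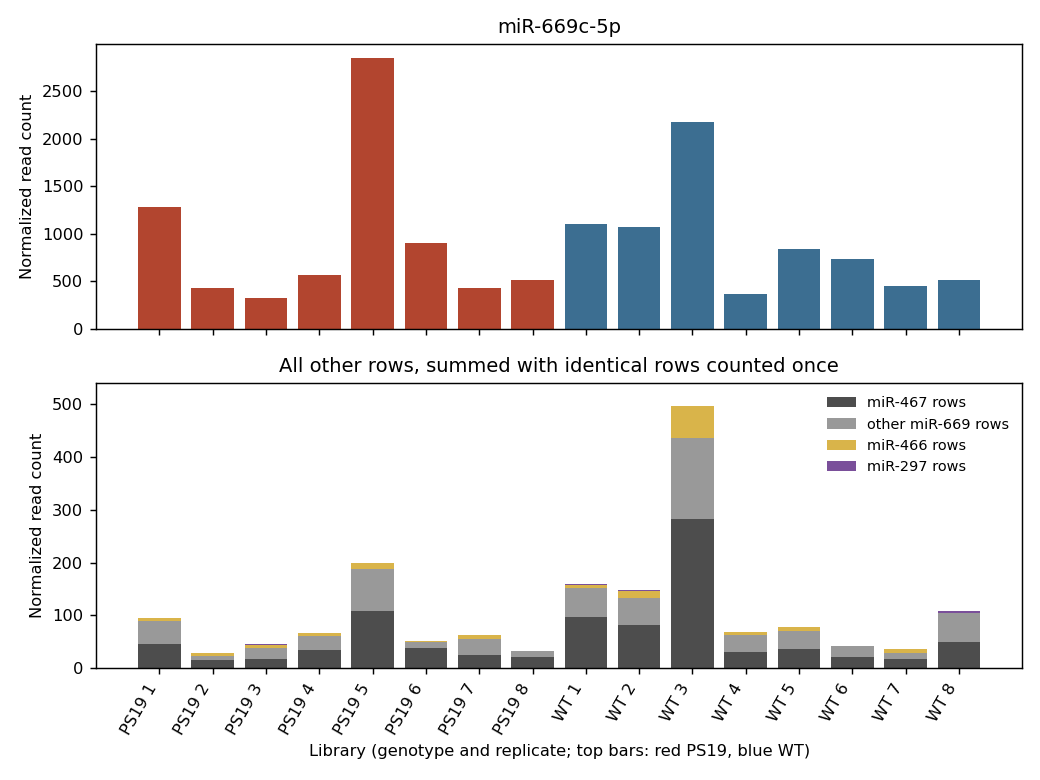
Normalized read count of miR-669c-5p (top, bars red for PS19 and blue for WT) and of all other members stacked by family (bottom, identical rows counted once) in each of the 16 libraries, on linear axes from 0. PS19 replicate 5 reaches 2856 for miR-669c-5p and WT replicate 3 reaches 495.3 for the rest, and each is the highest library of its genotype in both plots.

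The second question was whether the members differed between PS19 and WT cortex. No tested member passed the test. For miR-669c-5p the normalized read count was 328.4 at the lowest, 545.8 at the median and 2856 at the highest among the PS19 libraries, and 367.0, 790.7 and 2178 among the WT libraries. The genotypes overlapped over nearly the whole range, and the highest library of all was a PS19 library. Means were 916.2 ± 844.2 in PS19 and 907.9 ± 581.3 in WT (SD, n = 8 each), the higher mean in PS19 and the higher median in WT. On the log2(value + 1) scale the difference, PS19 minus WT, was -0.15 ± 0.41 (SE), with an interval of 2 SE either way from -0.96 to 0.67, and it was not significant (p = 0.723 by limma across 6024 features, exact permutation p = 0.755). The direction of this small difference was not stable, since it was 0.013 with DESeq2 and 0.016 with edgeR on the recovered reads.

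The 4 less abundant tested miRNAs all had lower means in PS19, but none differed by more than the spread between animals. For miR-467a-5p the PS19 libraries ran from 9.74 through a median of 20.3 to 84.5, and the WT libraries from 13.4 through 27.9 to 185.6. One library in each genotype stood far above the others, and 6 of 8 PS19 libraries were below the WT median. The means were 27.4 ± 24.6 and 51.5 ± 57.6 (SD, n = 8 each), a log2 difference of -0.68 ± 0.49 (limma p = 0.175, exact permutation p = 0.251). Its partner miR-467b-5p ran from 2.89 through 3.73 to 15.7 in PS19 and from 2.83 through 6.32 to 46.2 in WT, with means of 6.20 ± 4.51 and 13.3 ± 15.0. The PS19 range lay inside the WT range, with a log2 difference of -0.62 ± 0.48 (limma p = 0.217, exact permutation p = 0.285), which was -0.29 without WT replicate 3 and, as a log2 fold change on recovered reads, -1.10 with DESeq2 and -1.06 with edgeR, neither past an unadjusted 0.05.

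For miR-669a-5p, the values were 1.08 at the lowest, 8.61 at the median and 26.5 at the highest in PS19, and 3.54, 11.5 and 54.7 in WT. Here 7 of 8 PS19 libraries were below the WT median. Its means were 9.03 ± 7.94 and 16.4 ± 16.2, with a log2 difference of -0.79 ± 0.49, the largest of the tested members in this limma fit and still not significant (limma p = 0.120, exact permutation p = 0.182). With DESeq2 and edgeR it was -0.87 and -0.86, a smaller difference than that of miR-467b-5p (-1.10 and -1.06). For miR-669h-5p the values were 3.20, 5.09 and 18.9 in PS19 and 0.707, 9.55 and 36.8 in WT, so that both the lowest and the highest library were WT. The log2 difference was -0.47 ± 0.51 (limma p = 0.370, exact permutation p = 0.438), and it was -0.20 without WT replicate 3, -0.84 without WT replicate 7, -0.78 with DESeq2 and -0.79 with edgeR.

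**Figure D2:**
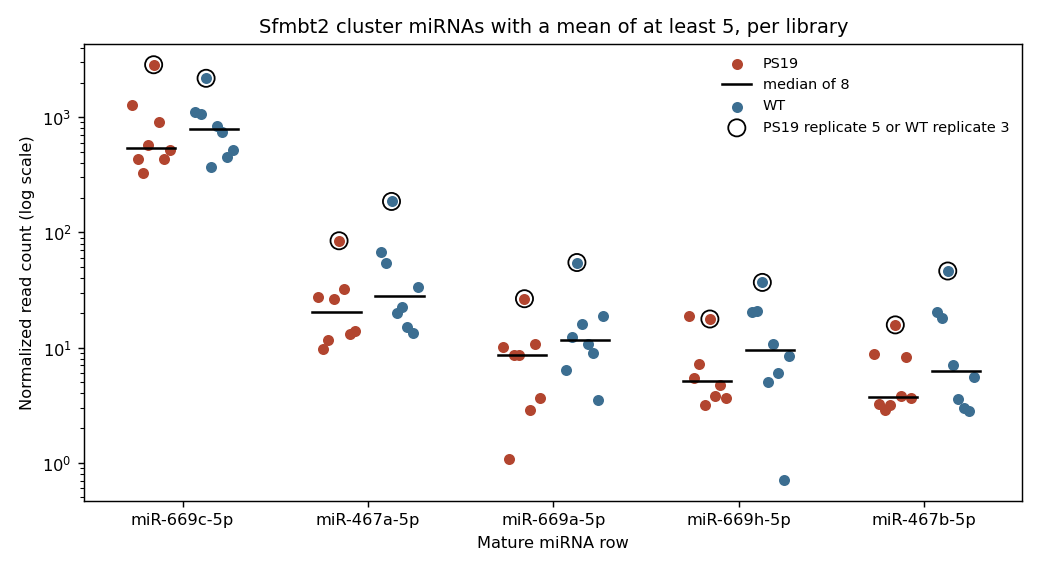
Normalized read count (log axis) of the 5 distinct tested miRNAs in each of the 8 PS19 (red) and 8 WT (blue) libraries, with the median of each genotype as a line. Circles mark PS19 replicate 5 and WT replicate 3, and the genotypes overlap for all 5 miRNAs, with miR-669c-5p at a mean of 912.1 far above the other 4.

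Over the tested rows, 0 of 6 passed an unadjusted p of 0.05 in limma, against 4% of all 6024 features, and 0 of 6 passed after Benjamini-Hochberg adjustment, against 0% of all features (the smallest adjusted p of a member was 0.9998). All 6 rows had a negative difference in limma, where 53.2% of all features and 344 of the 528 other tested mature miRNAs (65.2%) did. With DESeq2 and with edgeR 5 of the 6 were negative, the exception being miR-669c-5p. The median difference of the 6 rows was -0.65, beside -0.12 for the other mature miRNAs and -0.02 for all features. The 6 rows came from neighbouring hairpins and in part from the same reads, so they were not 6 separate observations.

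Relative to miR-669c-5p, the rest of the families took a smaller mean share in PS19, with broad overlap. The miRNA miR-669c-5p made up 91.7 ± 2.99% of member signal in PS19 (87.4% to 94.5%) and 87.8 ± 4.77% in WT (81.5% to 94.6%, SD, n = 8 each). The count of miR-467a-5p was 3.10 ± 0.816% of that of miR-669c-5p in PS19 and 4.92 ± 2.22% in WT, with ranges from 2.15% to 4.66% and from 2.04% to 8.52%. These shares are given as a description, with no test. The members other than miR-669c-5p summed to 73.1 ± 55.0 in PS19 and 141.9 ± 149.7 in WT, a log2 difference of -0.72. Without WT replicate 3 the WT mean of this sum was 91.4 ± 48.5 (SD, n = 7) and the difference -0.39, and without PS19 replicate 5 the difference was -0.96. All members together summed to 989.3 ± 897.3 and 1050 ± 724.3, a log2 difference of -0.21, which was 0.02 without WT replicate 3 and -0.49 without PS19 replicate 5.

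Without the filter, every feature above 0 in at least 2 libraries was fitted, which took in 34 members, the 6 tested rows and 28 of the rows under the filter. Of these 28, 23 had a negative difference (29 of all 34), beside 51.1% of all 17088 features and 658 of the 1065 other mature miRNAs (61.8%). Some of these 28 rows held identical values and may share reads. An unadjusted limma p under 0.05 was reached by 3 of the 28 and by none of the 6, beside 3.98% of all features, and none passed adjustment (adjusted p = 0.9999 for each of the 3 by limma). These 3 rested on few reads. The 3p product miR-466d-3p had 1 read in the PS19 libraries and 16 reads in the WT libraries, 10 of them in WT replicate 3 (limma p = 0.0129, exact permutation p = 0.0256). Its log2 difference of -0.92 was -0.60 without that library and, as a fold change on recovered reads without the added 1, -2.91 with DESeq2 and -3.05 with edgeR. The exact permutation p of miR-466d-3p was 0.0443 without that library alone and 0.0699 without that library and PS19 replicate 5 together. For miR-467d-3p there were 2 and 17 reads, again with 10 in WT replicate 3 (limma p = 0.0251, exact permutation p = 0.0437), and without that library its exact permutation p was 0.0841 and its limma p 0.0737. With DESeq2 and edgeR its log2 fold change was -2.65 and -2.52, beside -0.86 in limma. The exact test for this row missed 0.05 on leaving out 9 of the 16 libraries in turn, PS19 replicates 2 to 7 and WT replicates 2, 3 and 5. The reads of miR-467d-3p in WT replicates 1 to 7 (0, 2, 10, 1, 2, 0 and 1) were the same as those of miR-466d-3p. In WT replicate 8 it held 1 read against 0. The 2 rows may share reads, so the 3 rows are not 3 separate observations. For miR-669l-5p there were 22 and 49 reads, spread over 6 PS19 and 8 WT libraries (limma p = 0.0273, exact permutation p = 0.0598). Without WT replicate 3 its exact permutation p was 0.104 and its limma p 0.0589, and it also missed 0.05 with DESeq2, with a term for the code letter, and without PS19 replicates 2 or 3 or WT replicates 1 or 8. With the letter term miR-467d-3p missed it too, while miR-466d-3p passed in the fitted model under all 27 alternatives run for it.

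The values of miR-669l-5p ran from 0 through a median of 1.33 to 7.28 in PS19 and from 1.41 through 5.05 to 10.3 in WT, with a log2 difference of -1.09 ± 0.47, and the genotypes overlapped. The next by p were miR-669k-5p, with 0 reads in PS19 and 5 in 3 WT libraries (exact permutation p = 0.2, limma p = 0.0644), and miR-466a-3p, identical in every library to miR-466e-3p, with 4 reads in PS19 and 19 in WT, 13 of them in WT replicate 3 (exact permutation p = 0.179, limma p = 0.0933). In fitted models these 2 rows fell on either side of the threshold, while the exact permutation test did not pass on leaving out any library (lowest p = 0.0769 and 0.0737). In the models an unadjusted 0.05 was passed for miR-669k-5p under 7 of 26 alternatives, among them edgeR and the code letter as a term, and for miR-466a-3p under 5 of 27, among them DESeq2, edgeR and the replicate block. A count of 0 allows up to 3 reads, and as reads were amplified without molecular identifiers this limit covers counting error only.

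**Figure D3:**
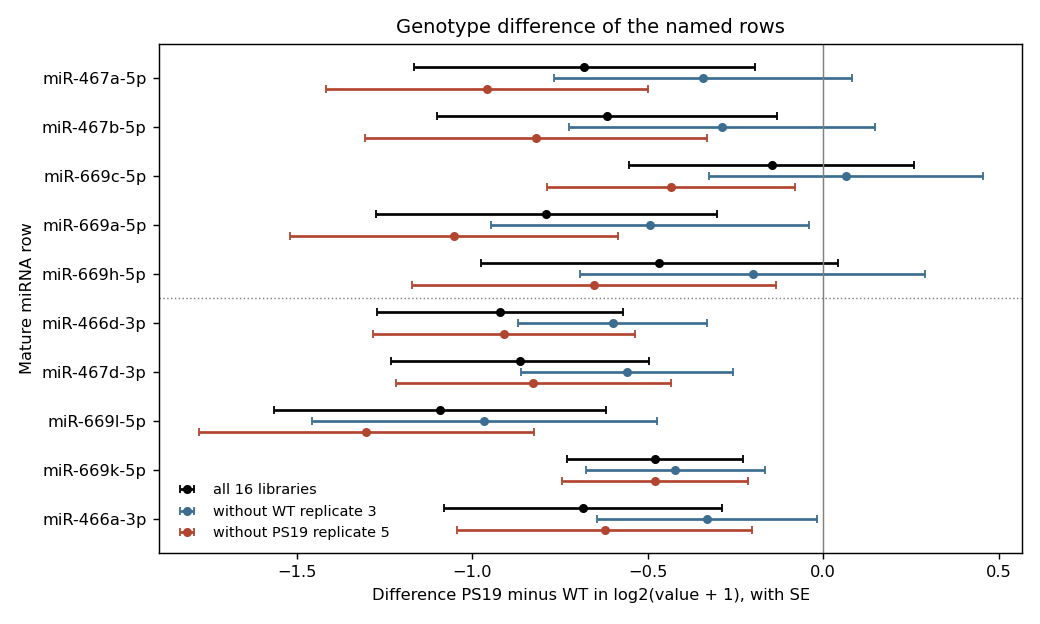
Difference between PS19 and WT in log2(value + 1) with its SE for the 5 tested rows (above the dotted line) and the 5 rows under the filter (below it), with all 16 libraries (black), without WT replicate 3 (blue) and without PS19 replicate 5 (red). The black value of miR-669c-5p is -0.15 and the blue one 0.066, while that of miR-467a-5p moves from -0.68 to -0.34 without WT replicate 3 and to -0.96 without PS19 replicate 5.

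In 2 animals, 1 of each genotype, the members stood high together. WT replicate 3 was the highest of all 16 libraries for 21 of the 33 distinct rows and for 4 of the 5 distinct tested rows, while it was the highest for 86 of the 528 other tested mature miRNAs (16.3%). The 33 rows include those under the filter, whereas the 528 had a mean of at least 5. WT replicate 3 also had the most recovered reads of all libraries (23.1 M). Relative to the median of its genotype, its tested members stood 2.25 higher on the log2 scale at the median, from 1.56 to 3.0, and the other mature miRNAs 0.48 higher. PS19 replicate 5 was the highest PS19 library for 4 of the 5 tested rows. Its tested members stood 1.84 higher than the PS19 median, from 1.53 to 2.52, and its other mature miRNAs 0.07 lower (-0.07). This library alone gave 3107 member reads and WT replicate 3 gave 3125, where the other 14 libraries gave 259 to 1279.

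**Figure D4:**
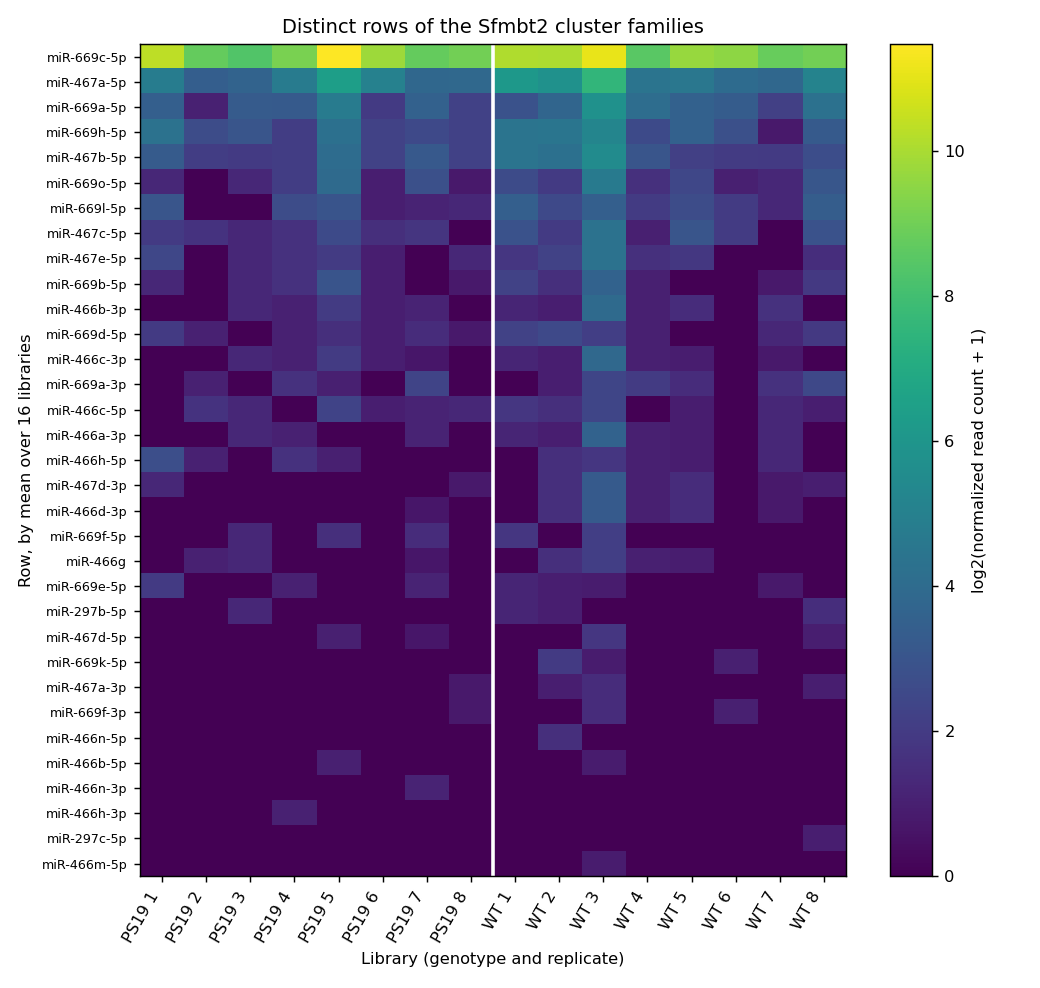
Colour shows log2(normalized read count + 1) of the 33 distinct rows, ordered by their mean, in each of the 16 libraries, with a white line between PS19 (left) and WT (right). The column of WT replicate 3 is the brightest in 21 rows, and the lower rows are at 0 in most libraries.

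Markers of other cell types in these 2 libraries were compared with the rest. Over 5 miRNAs of the choroid plexus and other epithelia, WT replicate 3 held a summed count of 8756, the second of 16 libraries, where the median was 2245. Of these, the choroid plexus miRNAs miR-448-3p and miR-1298-5p stood at 172.8 and 8530, while the epithelial miR-200a-3p and miR-429-3p were at 11.1 and 4.28, under their medians of 64.4 and 6.78. This list spanned 177.5 to 12843 among the PS19 libraries and 334.5 to 8756 among the WT libraries, and 1 of its 5 miRNAs (miR-429-3p) was at 0 in some library. In PS19 replicate 5 the same list stood at 1569, rank 9, and the sum of the 3 red blood cell miRNAs was the highest of all libraries at 1518 (median 971.4). That sum was nearly all miR-486a-5p (1499), while miR-451a stood at 18.7, where the highest library held 40.1, and miR-144-3p was at 0. The single liver miRNA, miR-122-5p, was high in both, at 386.6 (rank 3) in WT replicate 3 and 429.6 (rank 2) in PS19 replicate 5, with a median of 259.8. The 3 olfactory and sensory epithelium miRNAs summed to 2971 in WT replicate 3, rank 3 (median 1039), and the 3 muscle miRNAs to 2253 in PS19 replicate 5, the lowest of 16 (median 7080). In that muscle sum miR-1a-3p was the lowest of all libraries at 1791, while miR-206-3p was above its median (454.2 against 300.5). The 4 neuronal miRNAs of PS19 replicate 5 ranked 13 of 16 and its 4 immune cell miRNAs 3 of 16, of which miR-142a-3p and miR-155-5p were above and miR-142a-5p and miR-223-3p below their medians. That neuronal sum was mostly miR-128-3p (247639) and miR-9-5p (134569). The summed signal of all mature miRNAs in PS19 replicate 5 (3372453) was also under the median of the libraries (4440507). The neuronal list summed to at least 294666 in every library, with a highest value of 1026094 in PS19 and 953083 in WT, so neuronal miRNAs were abundant throughout. The part of these markers in the member levels was not tested.

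With the 2 libraries left out together, a choice made after seeing the data, the log2 difference of miR-669c-5p was -0.22 ± 0.32 (limma p = 0.495, exact permutation p = 0.524) and that of miR-669a-5p was -0.76 ± 0.42 (limma p = 0.0870, exact permutation p = 0.122). Without PS19 replicate 5 alone, miR-467a-5p reached -0.96 ± 0.46 (limma p = 0.0499, exact permutation p = 0.0911) and miR-669a-5p reached -1.05 ± 0.47 (limma p = 0.0357, exact permutation p = 0.0664). Without WT replicate 3 alone, they stood at -0.34 (exact permutation p = 0.489) and -0.49 (exact permutation p = 0.351). Leaving out WT replicate 7 gave -1.01 for miR-669a-5p (limma p = 0.0458, exact permutation p = 0.090).

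By the first letter of the library code, the comparison within one letter could only be made for G. There, miR-669c-5p ran from 328.4 to 2856 in 8 PS19 libraries and stood at 367.0 and 1069 in the 2 WT libraries, inside the PS19 range. The values of miR-467a-5p were 9.74 to 84.5 and, for the 2 WT libraries, 20.1 and 54.2, also inside it. The ratio of miR-467a-5p to miR-669c-5p did not overlap within G, with 5.07% and 5.48% in the 2 WT libraries against 2.15% to 4.66% in PS19, whereas the 4 WT libraries with the letter F held 2.64%, 2.04%, 3.01% and 6.16%. No separate test was run within G, which held only 2 WT libraries, and letter and genotype cannot be fully told apart. With the letter as a term in the fit over all 16 libraries, the log2 difference of miR-669c-5p was 0.17 ± 0.66 (SE). That of miR-467a-5p was -0.61 ± 0.73. WT replicate 3 was 1 of the 2 libraries with the letter A. The other, WT replicate 8, held 519.7 of miR-669c-5p, inside the range of the rest. As ratios, these 2 libraries stood at one end, with miR-467a-5p at 8.52% and 6.46% of miR-669c-5p, the highest of all 16, and miR-669c-5p at 81.5% and 82.8% of member signal, the lowest of all 16.

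Because the members stem from neighbouring hairpins in 1 intron, their levels were compared across libraries. Over the 10 pairs of distinct tested rows, Pearson's r of log2(value + 1) over 16 libraries lay between 0.5256 and 0.874, and Spearman's rho between 0.318 and 0.844. After adjustment over the 10 pairs, 10 passed 0.05 for r and 9 for rho in permutation tests with 100000 resamples (largest adjusted p = 0.0369 and 0.230). For miR-669c-5p with miR-467a-5p, r was 0.853 and rho 0.844 (permutation p = 4.0e-05 and 0.00011, adjusted p = 0.0003 and 0.0011), and without PS19 replicate 5 and WT replicate 3, the libraries farthest from the median, r was 0.736. For miR-669c-5p with miR-669a-5p, r fell from 0.5256 to 0.083 without the same 2 libraries, so that this relation rests on them. Without the 2 farthest libraries of each pair, r lay between 0.083 and 0.774, with 6 of the 10 pairs at an unadjusted p under 0.05 and 5 after adjustment over the 10. Within PS19 r was 0.520 to 0.938, and within WT it was 0.510 to 0.964. The rows of a library share its size factor and, where sequences are near-identical, may share reads. The other mature miRNAs also shifted between libraries, by a median log2 of -1.08 (WT replicate 7) to 0.80 (PS19 replicate 1) against their genotype. No r for pairs of other mature miRNAs was computed, so these tests do not set the members apart from mature miRNAs in general.

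The precursor rows of the same families gave a smaller signal. The table had 64 hairpin rows, 28 of them distinct, with a summed mean of 71.4 beside 1020 for the mature rows. Of these, 12 rows were tested, 3 of them distinct, since the 10 copies of mir-467a held one and the same value in each library. All 12 were lower in PS19 in limma (background 53.2%), with 0 at an unadjusted p under 0.05 (background 4%). The row of mir-467b had a mean of 34.3, above that of miR-467b-5p (9.77) and near that of miR-467a-5p (39.5). Its highest values were 78.6 in PS19 and 163.4 in WT. Those of miR-467a-5p were 84.5 and 185.6, and those of miR-467b-5p 15.7 and 46.2. Whether this row counted reads of miR-467a-5p was not tested, so its mean cannot be read as more precursor than mature miR-467b. The row of mir-669c, at 11.4, was far lower than miR-669c-5p (912.1). The log2 difference was -0.66 for mir-467b (exact permutation p = 0.264), -0.54 for mir-669c (exact permutation p = 0.405) and -0.64 for mir-467a-1 and its 9 copies (exact permutation p = 0.229). Among the untested precursors some means were higher in PS19, such as mir-669f at 2.58 ± 5.41 against 0.384 ± 0.543 in WT (SD, n = 8 each), where PS19 replicate 5 alone held 15.7 and the PS19 mean without it was 0.704. Reads may be shared between a hairpin row and a mature row, so these rows are not independent of the mature ones.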

How the data were processed

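The authors aligned single-end small RNA reads with STAR 2.5.3a inside the COMPSRA pipeline to mm10, per the submitters' processing notes, and normalized counts with DESeq2 1.42.1. Handling of reads that align to several places is not given in the sources used here. The deposited values are a normalized signal, read counts the authors divided by 1 size factor per library. Whole reads were recovered by division (100% of values within 0.01 of a whole number), with weaker evidence in WT replicates 4 and 6, where a read was worth nearly 1. The deposited columns of the authors' own comparison (mean, log2 fold change and its error, test statistic, p-values) were not used, and 0 columns of values per library were left unmapped.

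Values were transformed as log2(value + 1), which understates the change of low features. Features whose mean over the 16 libraries reached 5 were fitted with genotype as the only term by limma 3.58.1 (lmFit, eBayes with trend, R 4.3.3), two-sided, with Benjamini-Hochberg adjustment over all 6024 features. Exact permutation tests ran over the 12870 assignments of 8 and 8 libraries, two-sided, in Python 3.11.15 with scipy 1.17.1. Scripts were tested on simulated data. Sums got no test. The rows named were, in each family, up to 5 distinct rows of highest mean among those tested, and any tested row with an unadjusted p under 0.05. Over all families together, the 5 distinct rows under the filter with the smallest p in the fit without it were added. The members, lists and tests were chosen with earlier results of these data known. Alternatives were DESeq2 1.42.0 and edgeR 4.0.16 on recovered reads, scaling to the library or mature miRNA total, other filters and pseudocounts (0.5 and 5), array weights, a replicate block, a term for the code letter, identical rows counted once and leaving out each library. No pair of libraries of one genotype agreed within sampling noise (chi-square per degree of freedom at least 17.1 over 56 pairs).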

Additional observations from a re-analysis of the deposited data

Results flagged for a closer look

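In each genotype of 8 libraries, the highest and lowest library were compared with their nearest neighbour by the gap divided by the whole range, against the 95% critical value of Dixon's test for 8 values. Of 34 such sets, 25 passed, where chance gives about 1 in 20 (1.7 of 34) for independent, normally distributed values. These values are skewed counts and share libraries and rows, so that figure is not the count to set them against. WT replicate 3 accounted for 12 and PS19 replicate 5 for 8.

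WT replicate 3 was the outlying library for miR-467a-5p (gap 0.684 of the range), miR-467b-5p (0.592), miR-669c-5p (0.594) and miR-669a-5p (0.705). It was also outlying for the low rows miR-466d-3p (0.778), miR-467d-3p (0.778) and miR-466a-3p (0.873), which held 10, 10 and 13 reads there. Among the sums its gap was 0.794 for miR-466, 0.697 for miR-467, 0.608 for miR-669, 0.631 for all members and 0.734 for all but miR-669c-5p.

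PS19 replicate 5 was the outlying library for miR-467a-5p (0.699), miR-467b-5p (0.545), miR-669c-5p (0.621) and miR-669a-5p (0.622). Its gap was 0.681 for summed miR-467, 0.620 for summed miR-669, 0.624 for all members and 0.602 for all but miR-669c-5p.

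The other 5 rest on few reads or on depth. For miR-466d-3p, PS19 replicate 7 was the only PS19 library above 0 (gap 1), and for summed miR-297, PS19 replicate 3 was the only one (gap 1). WT replicate 8 stood apart for summed miR-297 (0.542), at 2.80 beside 1.28. WT replicate 2 stood apart for miR-669k-5p (0.649), at 2.85 beside 1.0. PS19 replicate 7 had the most recovered reads of its genotype (0.546), 22.6 M (in units of 1e6) beside 18.0 M.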

How the results depend on the processing

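No member passed an adjusted p of 0.05 under any of the 29 alternatives (0 rows in each, with limma, DESeq2 or edgeR). The 0 tested rows at an unadjusted p under 0.05 became 2 with array weights (miR-669a-5p and the identical miR-669p-5p, beside 6.94% of all features), 3 among the 34 rows fitted with no filter (all 3 of them under a mean of 5, beside 3.98%), and 0 to 3 on leaving out one library (beside 2.84% to 5.33%). Rows lower in PS19 were 2 of 2 with a mean of at least 20, 29 of 34 with no filter and 5 to 6 of 6 on leaving out one library. The difference of miR-669c-5p (-0.15) became 0.013 with DESeq2, 0.016 with edgeR and 0.17 with a term for the code letter, and lay between -0.43 and 0.066 on leaving out one library, turning positive without PS19 replicate 3 (0.011) or WT replicate 3 (0.066). With array weights miR-669a-5p had a difference of -1.08 and passed an unadjusted 0.05 in limma. On leaving out one library the summed difference ranged from -0.61 (WT replicate 6) to 0.23 (WT replicate 3) for miR-466, and, lowest without PS19 replicate 5 and highest without WT replicate 3, from -0.46 to 0.04 for miR-669, -0.49 to 0.02 for all members and -0.96 to -0.36 for miR-467. With medians in place of means it was -0.53 for miR-669 and -0.51 for all members. Among the rows under the filter, an unadjusted 0.05 was lost under 3 of 27 alternatives for miR-467d-3p and 7 of 27 for miR-669l-5p (-0.75 with the letter term, -1.08 with DESeq2). It was gained under 7 of 26 for miR-669k-5p and 5 of 27 for miR-466a-3p (-2.17 with DESeq2, -1.94 with edgeR, and -0.68 with the replicate block). The cause of these changes was not tested.

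Deviations of libraries with the same replicate number correlated at 0.0446 to 0.456, over 0.1 in 6 of 8 pairs, and 2 of 8 PS19 libraries correlated best with their own number. The labels do not say that a number marks a shared litter or day, and not every pair was over 0.1, so the numbers were not taken as pairs. With the replicate block, 0 tested members passed an unadjusted p under 0.05 and 6 of 6 were lower, while calls among all features went from 241 to 419. With the letter term they went to 124, with the mature miRNA total to 124, and with array weights to 418, and with DESeq2 283 features passed unadjusted and 15 adjusted. Scaling to the library total left 49.9% of all features lower in PS19, scaling to the mature miRNA total 45.7% and edgeR 48.0%, where limma had 53.2%. Keeping the largest row of each same-seed set was not run, because 1 of 40 rows had a sequence. A mean under 5 kept 34 of 40 rows from the main test.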
